A study of Mus musculus with 6 samples.

Results

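Mouse sperm carry lysozyme-like proteins and hyaluronidases in the acrosome and on the head, and the genes described here are 6 that encode them, *Lyzl1*, *Lyzl4*, *Lyzl6*, *Spaca3*, *Spam1* and *Hyal5*, out of 23152 genes measured. They were listed by name, with earlier results of these data known. For each array, a gene's signal was averaged over every probe set (a short group of probes read as 1 signal) that a probe table assigns to its symbol alone, which gave 7 to 9 probe sets for each of the 6 genes and 46 in all. Every value is a log2 signal, so a difference of 1 is a 2-fold change.

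Germ cells were released by enzymatic digestion from testes of individual FVB mice 22 days post-partum (dpp), and 1 Affymetrix Mouse Gene 2.0 ST array was used for the RNA of each. The 3 control mice were *Mgat1*[F/F], with floxed alleles and no Cre, and the 3 *Mgat1* cKO mice were *Mgat1*[F/F]:Stra8-iCre, in which Cre driven by the *Stra8* promoter acts in spermatogonia. Floxed *Mgat1* alleles are therefore shared by both groups. *Mgat1* encodes GlcNAcT-I, which begins complex N-glycan synthesis, and the sources used here do not say whether mice of the groups shared litters.

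The c-type lysozymes are small secreted enzymes that cut the peptidoglycan of bacterial cell walls, and gene duplication in mammals produced a branch transcribed mainly in the testis. *Spaca3* encodes the acrosomal protein SLLP1, which lacks lysozyme activity and has been linked to binding of sperm to the egg, and *Lyzl4* likewise encodes an acrosomal protein without catalytic residues. *Lyzl6* and *Lyzl1* are testis-enriched genes of the same branch. *Spam1* encodes PH-20, a hyaluronidase held on the sperm membrane by a lipid anchor, and *Hyal5* encodes a related hyaluronidase of mouse sperm. Both enzymes digest the hyaluronan that binds the cumulus cells around an ovulated egg. The acrosome, where most of these proteins are stored, is built in spermatids after meiosis.

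The sequences upstream of *Spam1* and *Hyal5*, of *Lyzl6* and of the neighboring hyaluronidase gene *Hyal6* are printed because the first 3 genes were all raised in the arrays and share a short run of bases, whereas *Hyal6* was not called. All are the 250 bases before the RefSeq transcription start (build GRCm38.p6), read 5′ to 3′ on the strand of the gene. *Spam1* (chr6:24790938-24791187, plus strand) and *Hyal5* (chr6:24857747-24857996, plus strand) have in capitals the longest run they share, of 18 bases. In *Lyzl6* (chr11:103638891-103639140, minus strand) the capitals mark TGATGTCA, which lies inside that run. *Hyal6* (chr6:24732995-24733244, plus strand) has no capitals.
Spam1: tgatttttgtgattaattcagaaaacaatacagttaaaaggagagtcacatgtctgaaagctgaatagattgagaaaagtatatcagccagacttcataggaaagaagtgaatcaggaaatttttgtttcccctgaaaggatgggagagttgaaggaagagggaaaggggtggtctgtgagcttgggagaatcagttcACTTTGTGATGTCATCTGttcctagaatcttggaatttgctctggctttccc
Hyal5: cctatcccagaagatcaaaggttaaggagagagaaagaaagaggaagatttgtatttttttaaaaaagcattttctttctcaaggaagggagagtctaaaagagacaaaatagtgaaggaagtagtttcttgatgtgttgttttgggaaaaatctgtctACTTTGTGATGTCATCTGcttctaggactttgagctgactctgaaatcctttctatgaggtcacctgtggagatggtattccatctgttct
Lyzl6: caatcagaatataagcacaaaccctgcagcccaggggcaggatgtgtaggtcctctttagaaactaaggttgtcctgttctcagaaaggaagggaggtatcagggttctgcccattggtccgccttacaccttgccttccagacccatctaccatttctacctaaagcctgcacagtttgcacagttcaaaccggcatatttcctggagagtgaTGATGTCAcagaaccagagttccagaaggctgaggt
Hyal6: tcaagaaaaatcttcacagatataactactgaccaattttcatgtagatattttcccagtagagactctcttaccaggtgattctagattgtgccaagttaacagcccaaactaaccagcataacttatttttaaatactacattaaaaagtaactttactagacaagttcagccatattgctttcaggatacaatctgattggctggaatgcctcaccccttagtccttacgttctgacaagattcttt

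The shared run begins at base -52 of *Spam1* and at base -91 of *Hyal5*, counted back from the transcription start. The 8 bases TGATGTCA, which were chosen after these promoters had been read, begin at -46 in *Spam1*, -85 in *Hyal5* and -36 in *Lyzl6*. On either strand they occur in 3.62% of the 32851 RefSeq windows of 300 bases (250 before and 50 after a start). Entries were found for 5 of the 6 genes, in 8 windows, and TGATGTCA was not in the 3 windows of *Lyzl4*, the 2 of *Spaca3*, the window of *Spaca5*, a relative that was also raised, or the window of *Hyal6*. The cAMP response element TGACGTCA (in 1.79% of all windows), the TATA motif TATAAA (13.6%) and GTTGCC, a core that RFX factors bind (12.5%), had no match in any window of these genes. TGATGTCA and TGACGTCA differ by a base and cannot match at the same place. The longest run that *Hyal6* shares with *Spam1* is 7 bases and with *Hyal5* 9 bases. *Hyal5* and *Lyzl6* share 11 bases elsewhere. These matches describe letters in a window, and binding was not measured. Because the printed promoters and the 8 bases were chosen with the rises known, the matches cannot test a link between them.

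All 6 genes were higher in *Mgat1* cKO germ cells, by 2.47-fold to 4.60-fold. With limma and Benjamini-Hochberg adjustment over all 23152 genes, 6 of 6 were called raised at an adjusted p under 0.05, beside 31.7% of all genes called in either direction (13.3% raised and 18.4% lowered). A rise of at least 2-fold that passed the test was seen in 6 of 6, beside 4.18% of all genes. In 6 of 6, each cKO array lay above each control array, which held for 20.1% of all genes. The median log2 fold change of the 6 was 1.86, and over all genes it was -0.02. These are bulk preparations, in which more cells of a type and more RNA per cell cannot be told apart.

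*Hyal5* had the largest change of the 6. Its log2 signal was 7.11, 7.0 and 7.13 in control mice 1 to 3 and 9.50, 9.21 and 9.13 in cKO mice 1 to 3. The lowest cKO mouse stood 2.00 above the highest control, the widest such gap among the 6 genes. The mean rose from 7.08 ± 0.0668 (SD, n = 3) to 9.28 ± 0.193, a log2 fold change of 2.20 (SE 0.11, 95% interval 1.95 to 2.45, 4.60-fold, limma adjusted p = 1.59e-06). Ordered by log2 fold change, *Hyal5* was number 174 of 23152 genes.

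*Spam1*, the gene beside *Hyal5* on chromosome 6, gave 7.56, 7.39 and 7.85 in controls and 9.50, 9.28 and 9.46 in cKO mice. The controls were more spread than the cKO mice, and the groups were 1.43 apart at their nearest points. The difference in means, from 7.60 ± 0.230 to 9.41 ± 0.121 (SD, n = 3), was 1.82 on the log2 scale (SE 0.13, 95% interval 1.53 to 2.10, 3.52-fold, limma adjusted p = 7.49e-06).

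*Lyzl1* had the largest change in gene mean among the lysozyme-like genes and the widest spread, although from the brightest probe set alone its change (1.78) was below those of *Lyzl6* (2.00) and *Lyzl4* (1.92). Its signal was 7.91, 7.59 and 8.36 in control mice and 10.10, 9.89 and 9.87 in cKO mice. Controls covered a wider range than the mutants, and no value overlapped. From 7.95 ± 0.385 (SD, n = 3) it rose to 9.95 ± 0.125, a log2 fold change of 2.00 (SE 0.17, 95% interval 1.61 to 2.39, 4.0-fold, limma adjusted p = 2.99e-05).

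*Lyzl6* signal was 8.53, 8.36 and 8.72 in control mice and 10.52, 10.45 and 10.33 in cKO mice, with 1.60 between the nearest values of the groups. Means of 8.54 ± 0.182 and 10.43 ± 0.0974 (SD, n = 3) gave a log2 fold change of 1.90 (SE 0.11, 95% interval 1.64 to 2.15, 3.72-fold, limma adjusted p = 3.17e-06).

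For *Spaca3*, the SLLP1 gene, controls gave 7.55, 7.39 and 7.53 and cKO mice gave 9.35, 9.09 and 9.15. The groups were compact and 1.53 apart. The mean went from 7.49 ± 0.0889 to 9.19 ± 0.139 (SD, n = 3), a log2 fold change of 1.70 (SE 0.10, 95% interval 1.47 to 1.93, 3.25-fold, limma adjusted p = 3.4e-06).

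On gene means, *Lyzl4* had the smallest rise of the 6 and the tightest cKO values. This place depended on the summary, since the median of its probe sets (2.01) was above that of *Lyzl6* (1.98), and its brightest probe set (1.92) was above those of *Lyzl1* (1.78), *Spaca3* (1.59) and *Spam1* (1.45). Control mice gave 6.94, 6.88 and 7.04, and cKO mice 8.21, 8.32 and 8.24. Although every cKO value was above every control value, the gap of 1.18 was the narrowest of the 6. The log2 fold change between 6.95 ± 0.0806 and 8.26 ± 0.0531 (SD, n = 3) was 1.31 (SE 0.09, 95% interval 1.10 to 1.51, 2.47-fold, limma adjusted p = 6.63e-06), at place 698 among all genes.

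Control mouse 2 had the lowest signal of the controls in all 6 genes. Averaged over the 6 genes, the controls gave 7.60, 7.44 and 7.77 and the cKO mice 9.53, 9.37 and 9.36, so the groups lay farther apart than any mice within a group.

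**Figure D1:**
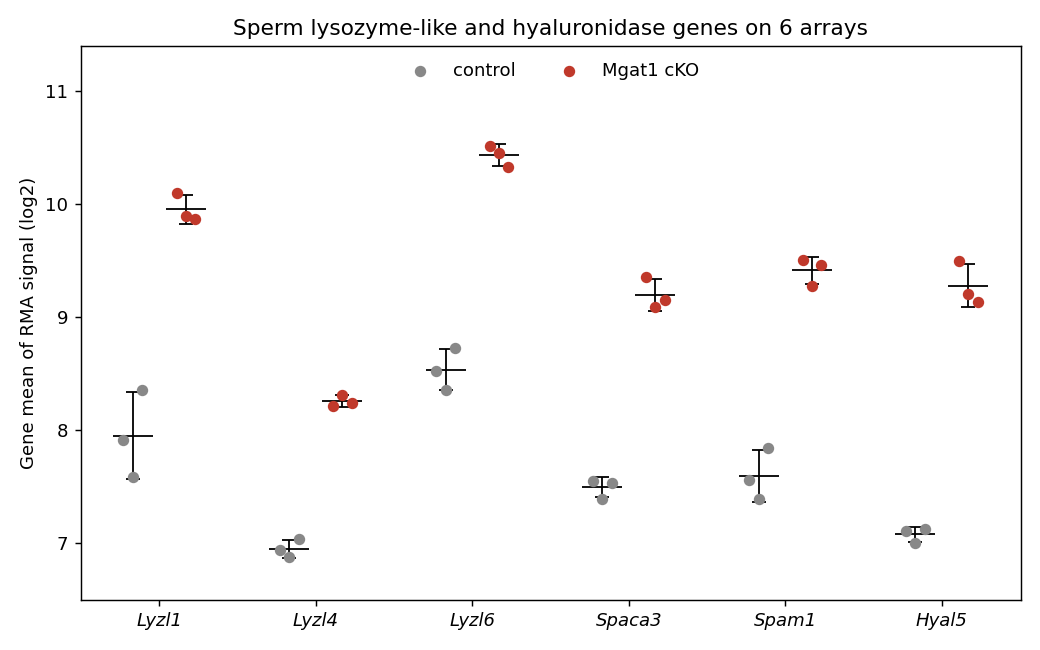
Log2 signal (y axis) of each of the 6 genes (x axis) on each array, control mice in gray and *Mgat1* cKO mice in red, with horizontal lines for the means and bars for the SD (n = 3 mice per group). The red points lie above the gray points in all 6 genes, with the narrowest gap in *Lyzl4* (1.18) and the widest in *Hyal5* (2.00).

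Fold changes of the 6 genes were then compared in pairs, through the difference between 2 genes within each array. *Hyal5* exceeded *Lyzl4* by 0.89 in log2 fold change and *Spam1* by 0.38, and in both pairs the within-array differences of control and cKO mice did not overlap. All 5 pairs with *Lyzl4* were of that kind, with *Lyzl4* the lower by 0.40 to 0.89. These differences were of gene means, and with the median of probe sets *Hyal5* exceeded *Lyzl4* by 0.31, while the order turned for *Lyzl6* with the median and for *Lyzl1*, *Spaca3* and *Spam1* with the brightest probe set. With the dimmest 50% of probe sets left out, *Lyzl4* (1.92) was also slightly above *Lyzl1* (1.91). *Hyal5* differed from *Lyzl1* by 0.20 and *Lyzl6* from *Spam1* by 0.08, and in these pairs the arrays overlapped (2-sided exact permutation p = 0.5 for each). Of 15 pairs, 8 reached p = 0.1, the smallest that an exact permutation of 3 against 3 mice allows, and the lowest p adjusted over the 15 pairs was 0.1875. This test therefore cannot pass a threshold of 0.05 with 3 mice a group.

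Each gene mean combines probe sets along a transcript, so the 46 probe sets were also tested singly, with limma and adjustment over all 269751 on the array. Of these 46, 39 were raised and 0 lowered, beside 5.19% raised and 4.11% lowered over the whole array. The cKO values exceeded all control values in 39 of 46, which held for 14.3% of all probe sets. Raised probe sets had log2 fold changes of 1.22 to 2.71 with a median of 2.12, and the highest adjusted p among them was 0.0267. The 7 that did not pass ranged from -0.72 to 0.85 (adjusted p 0.16 to 0.979). Control means of those 7 were 3.41 to 6.41, against 4.74 to 10.87 for the raised ones. By the mean over all 6 arrays, 3 of the 7 fell in the dimmest 25% of the array (below 5.71).

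In *Lyzl1* all 7 probe sets were raised, by 1.70 to 2.52. In *Hyal5* 6 of 7 were raised, and these were close together, at 2.31 to 2.71. The remaining *Hyal5* probe set had a control mean of 3.41 and a log2 fold change of 0.24. *Spam1* had 7 of 8 raised, by 1.45 to 2.50, with the least change of the 7 in its brightest probe set (control mean 10.87). The probe set that did not pass (-0.33) had a control mean of 3.83.

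*Lyzl4* showed a split along its probe sets in the order of their identifiers. The first 6 of 9 were raised by 1.57 to 2.13, a range that overlaps those of the other genes except *Hyal5*. The last 3 gave 0.09, -0.72 and 0.85 and did not pass. Control means of these 3 were 5.70 or less, against 6.63 or more for the 6 raised ones. The part of low signal in this split was not tested. The *Lyzl4* gene mean of 1.31 includes those 3, and the median of its probe sets gave 2.01 (limma adjusted p = 2.30e-05). In RefSeq *Lyzl4* overlaps the antisense gene *Lyzl4os*, which had 0 probe sets of its own. *Lyzl6* had 7 of 8 raised (1.22 to 2.51, the other 0.73), and *Spaca3* had 6 of 7 raised (1.32 to 2.47). The other *Spaca3* probe set had a change of -0.01 at a control mean of 5.72, with little spread.

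**Figure D2:**
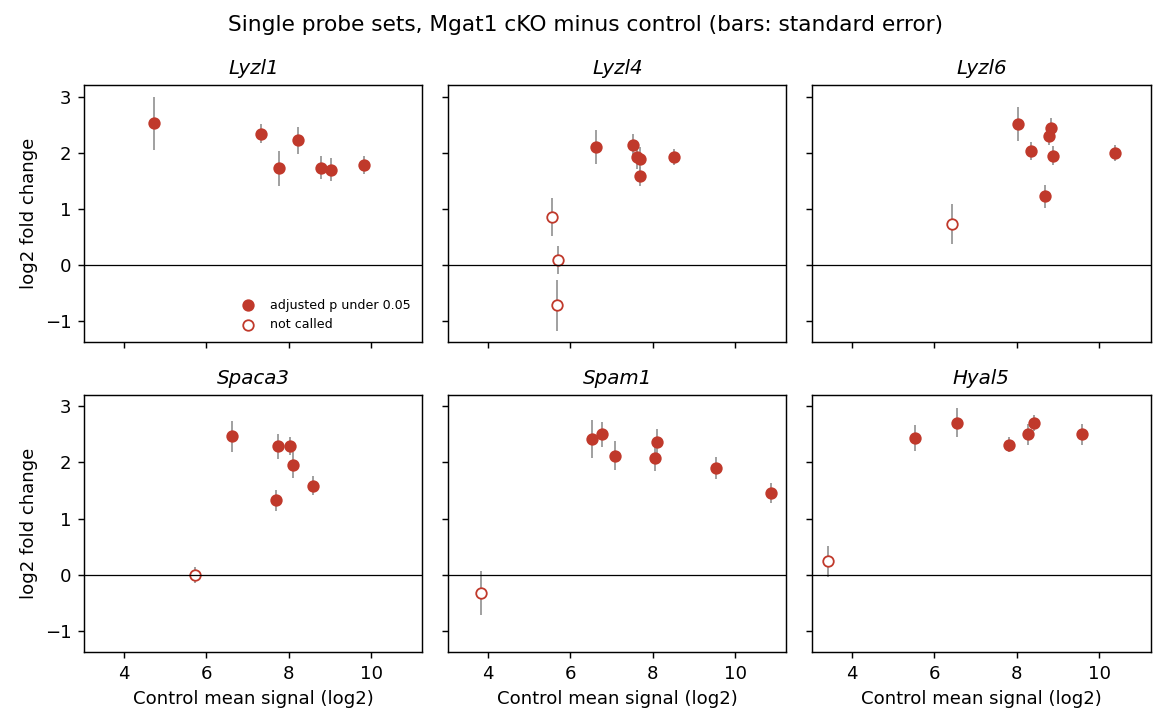
Log2 fold change (y axis, cKO minus control, bars for the standard error) of each probe set of the 6 genes against its mean log2 signal in controls (x axis), filled where the adjusted p was under 0.05. All 7 probe sets of *Lyzl1* are filled, and the open points of the other genes lie at control means of 6.41 or less.

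Whether the probe sets of a gene changed by unequal amounts was tested with limma diffSplice, leaving out the dimmest 25% of probe sets. It called 3 of the 6 genes, beside 29.1% of 18078 genes tested. The genes called were *Lyzl4* (adjusted p = 9.35e-05), *Lyzl6* (adjusted p = 0.000272) and *Spaca3* (adjusted p = 2.53e-07). *Lyzl1* (adjusted p = 0.404), *Spam1* (adjusted p = 0.198) and *Hyal5* (adjusted p = 0.79) were not called. On simulated data this test made more false calls than its threshold allows. Without the filter on dim probe sets, 5 of 6 were called, and with the dimmest 50% left out 2 were. The *Spaca3* probe set that did not rise was kept by the 25% filter close to its bound of 5.71, with means of 5.72 in controls and 5.71 in the cKO. Kept too were *Lyzl4* probe sets that did not pass, at control means of 5.70 and 5.54. The part of these dim probe sets in the calls was not tested. The sources used here do not give transcript positions of the probe sets, and the share of near-identical sequence between *Spam1* and *Hyal5* probes was not examined.

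Of 11 measured genes of the c-type and g-type lysozyme family, 5 were raised and 0 lowered (median 0.22), and of the 7 outside the group described here, 1 was raised (median 0.09), close to the 13.3% raised over all genes. That gene was *Spaca5*, a further sperm acrosome-associated member of the branch, on the X chromosome. *Spaca5* gave 5.74, 5.44 and 5.92 in control mice and 7.22, 6.74 and 6.87 in cKO mice, with no overlap. Its log2 fold change was 1.24 (SE 0.16, limma adjusted p = 0.000362), and 4 of its 6 probe sets were raised. With the median of its probe sets the value was 1.97.

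*Lyz2*, the lysozyme of macrophages, gave 7.86, 8.16 and 7.57 in controls and 6.07, 7.88 and 7.11 in cKO mice, a log2 fold change of -0.84 (SE 0.37) that did not pass (limma adjusted p = 0.114). The groups overlapped and cKO mouse 1 was the lowest. Without cKO mouse 2 the value was -1.27 and passed (adjusted p = 0.0122), and without cKO mouse 1 it was -0.37 (adjusted p = 0.309). Macrophage markers moved in the same direction, with 6 of 9 lowered and 0 raised, beside 18.4% of all genes lowered. Their mean was 8.07, 8.38 and 7.90 in control mice and 6.98, 7.62 and 7.35 in cKO mice, lowest in the same mouse, and their part in the *Lyz2* value was not tested. *Lyz1*, the Paneth cell lysozyme, gave -0.17 (adjusted p = 0.285). *Lalba*, for the milk protein alpha-lactalbumin, gave 0.22 (adjusted p = 0.231) and 0.36 without control mouse 3, where it passed (adjusted p = 0.0467), and the lysozyme-like gene *9530003J23Rik* gave 0.11 (adjusted p = 0.439). The g-type genes *Lyg1* and *Lyg2* gave 0.09 (adjusted p = 0.666) and 0.01 (adjusted p = 0.926).

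The neighbors of *Spam1* and *Hyal5* in the hyaluronidase cluster were not called. In RefSeq, the coding genes *Hyal6*, *Hyal4*, *Spam1* and *Hyal5* follow each other on chromosome 6. *Hyal6*, a testis-expressed gene of the cluster, gave 11.58, 11.39 and 11.65 in controls and 11.64, 11.75 and 11.67 in cKO mice, with overlapping groups. Its log2 fold change of 0.15 (SE 0.10) did not pass (limma adjusted p = 0.297). *Hyal4*, which in humans encodes an enzyme acting on chondroitin sulfate, gave 4.85, 4.70 and 5.17 in control mice and 5.07, 4.90 and 4.77 in cKO mice. Its values also overlapped, and the log2 fold change was 0.0045 (SE 0.13, limma adjusted p = 0.984). The differences in change between the neighboring genes were not tested.

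Over the hyaluronidase family, 3 of 9 measured genes were raised and 0 lowered (median 0.15). Outside *Spam1* and *Hyal5* the count was 1 of 7 (median 0.06), close to the 13.3% of all genes. The lysosomal hyaluronidase gene *Hyal1* was the one raised, by 0.30 (SE 0.10, limma adjusted p = 0.0451), a call that was lost without any of control mice 2 and 3 or cKO mice 1, 2 and 3 (adjusted p 0.0805 to 0.137), and its value ran from 0.18 with the brightest probe set (adjusted p = 0.481) to 0.99 with the median of probe sets (adjusted p = 0.0451). *Hyal3*, which overlaps *Hyal1* in RefSeq, gave 0.36 (adjusted p = 0.108), and *Hyal2*, for a hyaluronidase of somatic cell membranes, gave -0.11 (adjusted p = 0.459). *Tmem2*, for a cell surface hyaluronidase, gave -0.27 (adjusted p = 0.109). *9930013L23Rik*, the array's symbol for *Cemip*, whose protein takes part in hyaluronan breakdown, gave 0.06 (SE 0.14) and did not pass.

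**Figure D3:**
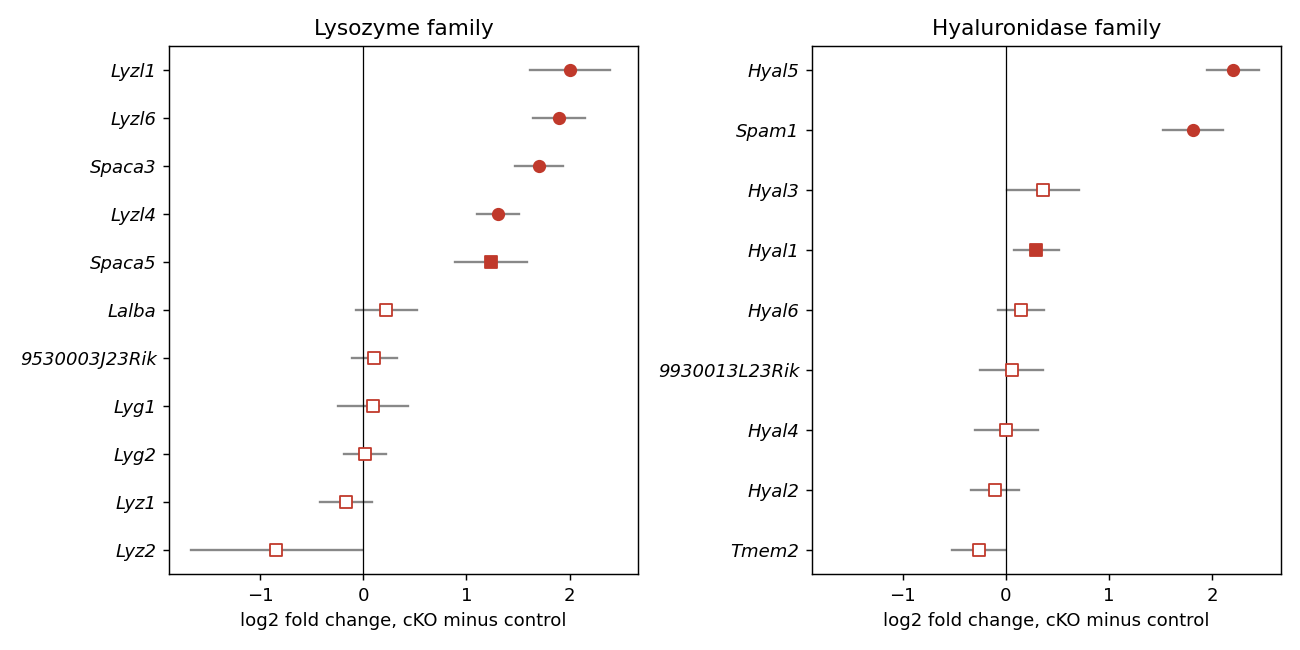
Log2 fold change (x axis, cKO minus control, bars for the 95% interval) of the measured genes of the lysozyme family (left) and the hyaluronidase family (right), with circles for the 6 genes described, squares for relatives and filling for an adjusted p under 0.05. *Spaca5* (1.24 on the gene mean) is the relative with the largest rise, whereas *Hyal6* (0.15) and *Hyal4* (0.0045), which lie in the same cluster as *Spam1* and *Hyal5*, are near 0. *Hyal4* signal was low (control mean 4.91), so a change in it could be missed.

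Other genes of the acrosome held called and uncalled members. Of 19 measured, 11 were raised, 1 lowered and 7 not called, with a median of 0.42, beside 13.3% raised and 18.4% lowered over all genes. The largest called changes were in *4933407P14Rik* (the array's symbol for *Sppl2c*, a protease gene of spermatids), *4930579C15Rik* (for *Eqtn*, equatorin of the acrosomal membrane) and *Tmem190*, at 2.82, 2.14 and 1.94. *Hyal5*, at 2.20, was above all but the first of these. *Gopc*, needed for the formation of the acrosome from Golgi vesicles, was the gene lowered (-0.45, limma adjusted p = 0.0097). *Acr*, for the acrosomal protease acrosin, gave 0.27 (adjusted p = 0.0547), and *Spink2*, for an inhibitor of acrosin, gave 0.03 (adjusted p = 0.821). These 2 and 5 other genes not called had values of -0.04 to 0.27.

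Markers of germ cell stages were read on the same arrays, where 13.3% of all genes were raised and 18.4% lowered. All 8 round spermatid markers were raised (median 1.98), and their mean was 8.54 to 8.85 in controls and 10.38 to 10.59 in the cKO, so it moved with the 6 genes. Within this list *Dbil5*, which the paper assigns to round spermatids, rose least, by 0.63, and the others rose by 1.54 to 2.29. *Acrv1* and *Spaca1* are in both the round spermatid list and the acrosome list. The paper assigns *Acrv* to late spermatids. All 8 elongating spermatid markers were raised too, with a larger median of 3.60 and means of 6.96 to 7.12 in controls and 10.27 to 10.65 in the cKO. Pachytene spermatocyte markers had 2 raised and 3 lowered of 8 (median -0.05), with means of 11.30 to 11.38 in controls and 11.21 to 11.31 in the cKO. The part of cell composition in the rise of the 6 genes was not tested.

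Markers of other testis cells were rarely raised, beside 13.3% raised and 18.4% lowered over all genes. Of 8 Sertoli cell markers 0 were raised and 4 lowered (median -0.42, means of 8.04 to 8.18 in controls and 7.58 to 7.89 in the cKO). Of 7 Leydig cell markers 1 was raised and 1 lowered (median -0.75, means of 8.79 to 9.34 and 7.52 to 8.91). The macrophage median was -0.56. Since several lysozyme-like genes are also active in the epididymis, its markers were read as well, and 0 of 5 were raised and 1 lowered, with means of 5.73 to 6.07 in controls and 5.83 to 5.90 in the cKO.

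**Figure D4:**
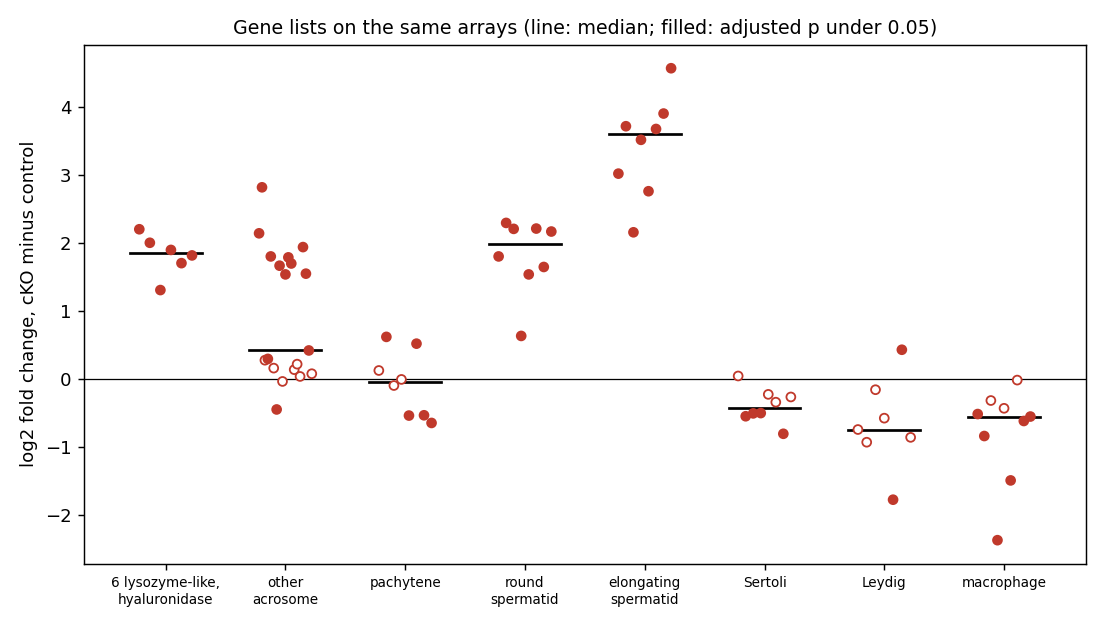
Log2 fold change (y axis, cKO minus control) of each gene in 8 lists (x axis), filled where the adjusted p was under 0.05, with a line at the median of each list. The 6 lysozyme-like and hyaluronidase genes (median 1.86) lie near the round spermatid markers (1.98), below the elongating spermatid markers (3.60) and above the pachytene markers (-0.05).

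The genes whose profile over the 6 arrays was nearest to each of the 6 were found by the root mean square (RMS) difference in log2 signal after each gene was centred on its own mean, among 15892 genes. *Lpcat2b*, a lysophospholipid acyltransferase gene, was nearest to *Lyzl4* (RMS 0.0281), followed by *Tmc5* (0.0487) and *Ccdc33* (0.0496). Nearest to *Spaca3* were *Fam135b* (0.0293), *Clip4* (0.032) and *Spag4* (0.0379), a gene of the sperm tail and nuclear envelope. *Lyzl6* had *Tmco5* (0.0355), *Nt5c1b* (0.036), for a cytosolic nucleotidase, and *Pmfbp1* (0.0425), which acts in the junction of sperm head and tail. For *Hyal5* they were *Ms4a5* (0.0364), *Antxrl* (0.0444) and *Plb1* (0.0542), for a phospholipase. For *Spam1* they were *Spaca4* (0.0562), an acrosomal membrane gene also in the acrosome list, *Spata21* (0.0672) and *Ccdc70* (0.0684). The variable *Lyzl1* had the most distant neighbors, *Ttc23l* (0.0911), *Gzmn* (0.0938), for a granzyme of the testis, and *Klhl10* (0.113), a spermatid gene needed for male fertility. With 6 arrays in 2 groups, such likeness rests mostly on the size of the difference between groups.

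Across genes, Pearson r between arrays was 0.992 to 0.994 inside a group and 0.950 to 0.970 between groups, and array medians over probe sets were 7.31 to 7.38. *Mgat1* itself gave 6.91, 7.0 and 6.82 in controls and 6.87, 6.69 and 6.80 in cKO mice, with overlapping groups (log2 fold change -0.13, limma adjusted p = 0.356). The sources used here do not place its probe sets relative to the deleted segment, and the value does not check the labels. The paper reports much lower *Mgat1* transcript in cKO germ cells by qRT-PCR, and only deleted alleles in their DNA.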

How the data were processed

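Germ cell RNA of 6 mice was measured on 1 array each, and groups and replicate numbers came from the labels. The deposited values are log2 signals of 269751 probe sets, which the authors made in Affymetrix Expression Console with RMA (background correction, quantile normalization, summarization of probes). The sources used here name no versions, annotation or genome build. Folds at low signal are compressed by RMA, and a change in total mRNA cannot be seen. The number of arrays limits the precision.

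Gene values were means over probe sets that carry 1 symbol (233753 probe sets, 23152 genes). Another 5139 probe sets had several symbols and 30859 had none, and these were left out. Groups were compared with limma 3.58.1 (lmFit, eBayes, 2-sided, no covariates) in R 4.3.3, with Benjamini-Hochberg adjustment over all genes or all probe sets and a threshold of 0.05. The median standard error over genes was 0.11. Exact permutation tests used SciPy 1.17.1, and figures used matplotlib 3.10.9 in Python 3.11.15. The steps were tested on simulated data. Promoters came from RefSeq.

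The 6 genes and all lists were chosen with earlier results of these data known. Named genes were the 6, all measured family members, the 3 largest called changes in a list, and the 3 genes most like each of the 6, leaving out genes with fewer than 3 probe sets, predicted genes, clones, small RNAs and chemosensory receptors. In the hyaluronan synthesis and binding list, every called gene was named. *Gopc*, *Acr*, *Spink2*, *Acrv1*, *Spaca1*, *Dbil5* and the shared probe sets were named after their values were seen. Results were recomputed without each array in turn, with the replicate number as a block, after median centring or a further quantile normalization, without dim probe sets, from the median or brightest probe set, with array weights, with another variance prior and with the methods' one-way test, adjusted or not. The difference of group medians was also taken.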

Additional observations from a re-analysis of the deposited data

Results flagged for a closer look

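Among probe sets left out of gene values because they carry more than 1 symbol, 3 assigned to both *Nat6* and *Hyal1* were raised in *Mgat1* cKO germ cells. Their log2 fold changes were 1.58 (17521444, limma adjusted p = 0.00336), 1.63 (17521445, adjusted p = 0.00289) and 1.79 (17521446, adjusted p = 0.00444). Control means of 9.69, 9.43 and 9.07 stood against cKO means of 11.27, 11.06 and 10.86, and all cKO mice were above all controls in each. The other 3 probe sets of *Hyal1* and *Nat6* gave 0.19, -0.34 and 0.01 and did not pass, and the *Hyal1* mean over its own probe sets changed by 0.30. Of the 5 probe sets of *Hyal1* alone, 17521440 was raised by 1.29 (limma adjusted p = 0.0457), with all cKO mice above all controls. The other 4 did not pass. In RefSeq *Hyal1* overlaps *Naa80*, and *Nat6* is listed as a synonym of both, so the gene behind the 3 probe sets was not determined.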

How the results depend on the processing

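The 6 genes stayed higher in cKO mice in all alternative settings run (108 of 108 values), with log2 fold changes of 1.78 to 2.22 (*Lyzl1*), 1.27 to 2.01 (*Lyzl4*), 1.81 to 2.06 (*Lyzl6*), 1.59 to 2.21 (*Spaca3*), 1.45 to 2.22 (*Spam1*) and 2.09 to 2.55 (*Hyal5*), and their raised probe sets numbered 34 to 39. All 6 were called raised in the 17 settings with a test, which include the methods' test without adjustment. The difference of group medians has no test. Same-numbered mice did not deviate together (r = 0.03, 0.10 and -0.06). With the replicate number as a block, 3010 genes were raised and 4020 lowered, 6 of 6 genes stayed raised, and *Lyz2* became a called fall (-0.84, adjusted p = 0.0358), the 1 lowered lysozyme gene, while *Hyal1* lost its call (adjusted p = 0.0581), as it did with another variance prior (0.0629), the methods' test once adjusted (0.076), the dimmest 50% of probe sets left out (0.37) and the brightest probe set (0.481). Leaving out 1 mouse in turn gave 0 to 1 lowered probe sets among the 46 and 0 to 1 lowered lysozyme genes, each 1 without cKO mouse 2, where *Lyz2* had -1.27 (adjusted p = 0.0122), and 1 to 2 raised hyaluronan synthesis and binding genes, with 2 without control mouse 1. Over all genes, 2629 were lowered with the median of probe sets, 2194 with the brightest and 2408 in the methods' test once adjusted, against 4255. Without the filter on dim probe sets, 5 of the 6 genes had unequal probe sets, against 3, and with the dimmest 50% left out 2 had. No acrosome gene was lowered (0) with the brightest probe set. Of the hyaluronan synthesis and binding genes, 2 were raised with median centring and with the methods' test, adjusted or not, and 1 was lowered with the median of probe sets. The cause of these shifts was not tested. *9930013L23Rik* gave 0.94 without the dimmest 50% of probe sets and passed there. Signs turned, with no call, for *Lyz1* (0.037 without the dimmest 25% of probe sets, 0.18 with the median, 0.037 with the brightest), *Lalba* (-0.11 with the median), *Lyg1* (-0.057 to 0.21 with 1 mouse left out, lowest without cKO mouse 3), *Lyg2* (-0.010 to 0.056 with 1 mouse left out, below 0 without control mouse 3, cKO mouse 1 or cKO mouse 3, and -0.0033 with array weights), *Hyal4* (-0.10 to 0.13 with 1 mouse left out, below 0 without control mouse 1 or 2 or cKO mouse 1, and -0.0012 with array weights), *Tmem2* (0.53 with the brightest) and *9930013L23Rik* (-0.068 to 0.16 with 1 mouse left out, below 0 without control or cKO mouse 2). The difference between *Hyal5* and *Lyzl4* ranged from 0.31 to 0.97, and that between *Hyal5* and *Spam1* from 0.10 to 1.05, in settings chosen after seeing the data.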

Other observations

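Of 14 measured genes that make or bind hyaluronan, the substrate of the sperm hyaluronidases, 1 was raised and 3 were lowered, a share near the 31.7% of all genes called in either direction, with a median log2 fold change of -0.09, beside -0.02 over all genes. The link protein gene *Hapln1* was raised by 0.76 (limma adjusted p = 0.000247). *Ugdh*, whose enzyme makes the UDP-glucuronic acid used in hyaluronan chains, fell by 0.87 (adjusted p = 0.0018), *Tnfaip6*, for a hyaluronan-binding protein, fell by 0.76 (adjusted p = 0.013), and *Hmmr*, for a hyaluronan receptor that also binds the mitotic spindle, fell by 0.59 (adjusted p = 0.0022).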
